A study of Arabidopsis thaliana with 20 samples.

Results

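The libraries described here came from Arabidopsis plants (ecotype Columbia, 3 weeks old, whole plants) that carry a mutation of either RNA polymerase IV (nrpd1a) or ARGONAUTE4 (ocp11) and express a perfectly paired hairpin RNA against EIN2. They are 4 of the 20 samples in the series: 2 nrpd1a and 2 ocp11 libraries, all with the hpEIN2[WT] transgene and all from the table of the second sequencing batch. They were chosen by title. The nrpd1a libraries are numbers 2 and 3 (the table has no row 3 for this group, and its row 13 was taken as library 3 by elimination), and the ocp11 libraries are numbers 10 and 11. Library 15 of Col-0 plants with the same transgene, the only one of its kind in that table, is shown as a reference level and entered no test. Every group carries the hairpin, and plants without it were not analysed here, so the count of stem reads without a transgene is unknown. Whether libraries of 1 genotype stem from separate plants, pools or transgene lines is not in the labels. The p-values therefore cover these libraries only, whose spread may be technical, and mutant and transgene line cannot be told apart. No stem sequence was given in the sources used here, so no siRNA position or sequence is shown.

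Plants turn double-stranded RNA into small interfering RNAs (siRNAs) with Dicer-like (DCL) enzymes, each of which leaves products of its own length. DCL4 makes the 21-nt class, DCL2 the 22-nt class and DCL3 the 24-nt class. RNA polymerase IV, whose largest subunit is encoded by NRPD1A (AT1G63020, chromosome 1), supplies the transcripts from which most endogenous 24-nt siRNAs are made, and AGO4 (AT2G27040, chromosome 2, with OCP11 among its RefSeq synonyms) binds 24-nt siRNAs and guides DNA methylation. A hairpin transcript is already double-stranded when it folds, and antisense siRNAs from its stem can pair with the mRNA of EIN2 (AT5G03280, chromosome 5), a central component of ethylene signalling. The 2 mutants interrupt the same silencing pathway at different points: one before the 24-nt siRNA is made and the other after it.

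Each value is a raw count of reads of 1 length (18 to 25 nt) and strand on the WT stem, with the 4 run entries of a library summed. The nrpd1a libraries held 34504 (library 2) and 12567 (library 3) stem reads, the ocp11 libraries 287622 (library 10) and 464123 (library 11), and the Col-0 library 343168. The tables give no library totals, so a lower siRNA level and shallower sequencing cannot be told apart, and amounts were not compared. Shares and ratios within a library do not need that total, but the smaller nrpd1a counts have wider intervals. Any stem reads not from the hairpin would weigh more in these smaller counts, and their part in the results was not tested. Size and strand shares had 95% Wilson intervals of at most 1.26 percentage points to either side in nrpd1a and 0.263 in ocp11. These intervals cover counting error only, and PCR copies are not independent molecules.

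The nrpd1a and ocp11 libraries differed most in 3 length classes. In nrpd1a a larger part of the stem siRNAs was 21 nt long, and smaller parts were 23 and 24 nt long, on both strands. Of the 16 size shares (8 lengths on each strand), 12 did not overlap between the mutants, 6 higher and 6 lower in nrpd1a (75% of the 16, or 37.5% in each direction). Over all 31 measures described below (shares, ratios and mean lengths), 27 did not overlap (87.1%), 13 of them higher (41.9%) and 14 lower (45.2%) in nrpd1a. In 8 of the 12 size shares the Wilson intervals of the mutants were also apart, and in 5 the gap between the mutants was wider than the difference between libraries of 1 mutant: 21 nt and 23 nt on each strand and 22 nt on the antisense strand. Shares of 1 strand add up to 100, so these are not independent of each other. With 2 against 2 libraries an exact permutation test has 6 arrangements and cannot go below p = 0.333, and none of the 31 measures compared could pass a threshold of 0.05.

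**Figure D1:**
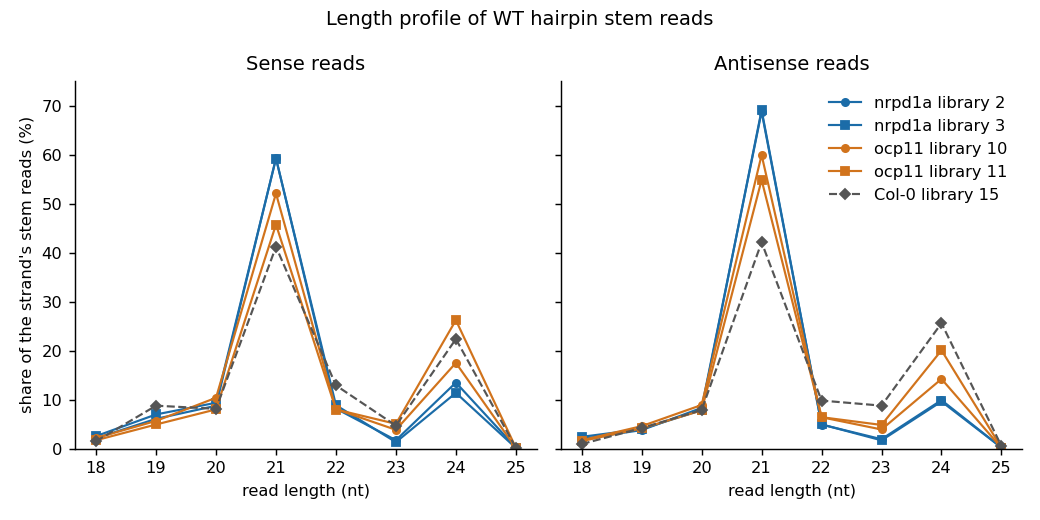
Share of each read length among the sense (left) and antisense (right) stem reads of 1 library, in percent, for read lengths of 18 to 25 nt. Lines are the 2 nrpd1a, 2 ocp11 and 1 Col-0 library. The nrpd1a lines nearly coincide and peak highest at 21 nt (59.3% and 59.2% sense), and they are lowest at 24 nt (13.5% and 11.4% sense).

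The 21-nt class, the usual product length of DCL4, was the largest in each of these 5 libraries on each strand, ahead of 24 nt. Among sense reads it made up 59.3% and 59.2% in nrpd1a libraries 2 and 3, and 52.1% and 45.7% in ocp11 libraries 10 and 11. The nrpd1a libraries were almost equal and lay above both ocp11 libraries. The means were 59.2% ± 0.0463 in nrpd1a and 48.9% ± 4.48 in ocp11 (n = 2 each, ± SD), a difference of 10.3 percentage points (exact permutation test, two-sided, p = 0.333). Among antisense reads the class made up 68.7% and 69.1% in nrpd1a, against 59.9% and 54.8% in ocp11. Here too the groups did not overlap, with means of 68.9% ± 0.230 and 57.4% ± 3.60 (nrpd1a and ocp11, n = 2 each, ± SD) and a difference of 11.5 percentage points (exact permutation p = 0.333). The Col-0 library had lower 21-nt shares than either mutant, at 41.2% of sense and 42.1% of antisense reads.

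The 24-nt class, the usual product length of DCL3 and the length that AGO4 binds, was smaller in nrpd1a than in ocp11. It was present in all nrpd1a libraries. Among sense reads it made up 13.5% and 11.4% in nrpd1a libraries 2 and 3, against 17.5% and 26.2% in ocp11 libraries 10 and 11. The groups did not overlap, but the ocp11 libraries were 8.71 percentage points apart, while the nearest libraries of the groups differed by only -4.02 (nrpd1a minus ocp11). The means were 12.5% ± 1.48 in nrpd1a and 21.9% ± 6.16 in ocp11 (n = 2 each, ± SD), a ratio of 0.569 and a difference of -9.42 percentage points (exact permutation p = 0.333). Without ocp11 library 11 that difference was -5.07. Antisense reads showed the same order, with 9.92% and 9.64% in nrpd1a and 14.2% and 20.1% in ocp11. Their means were 9.78% ± 0.195 in nrpd1a and 17.2% ± 4.14 in ocp11 (n = 2 each, ± SD), a ratio of 0.570 and a difference of -7.38 percentage points (exact permutation p = 0.333), or -4.46 without ocp11 library 11. The Col-0 library, with 22.4% of sense and 25.6% of antisense reads, lay between the ocp11 libraries on the sense strand and above them on the antisense strand.

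**Figure D2:**
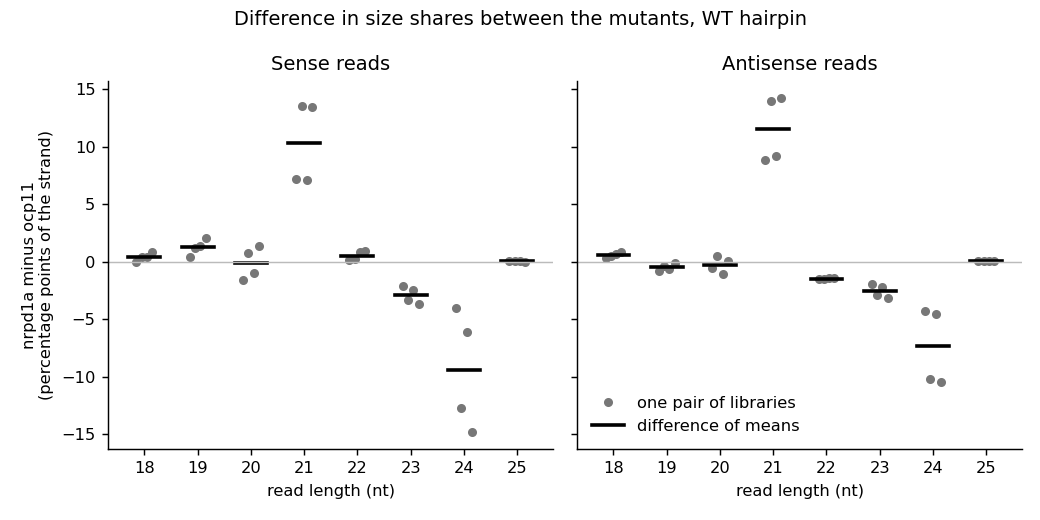
Difference in size share, nrpd1a minus ocp11, in percentage points of the strand's reads, by read length, for sense (left) and antisense (right) reads. Grey points are the 4 pairs of 1 nrpd1a and 1 ocp11 library, and black lines are the differences of the group means. All 4 pairs lie above 0 at 21 nt and below 0 at 23 and 24 nt on both strands, and the pairs are widest apart at 21 and 24 nt.

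The 23-nt class, which is not the usual product length of DCL4, DCL2 or DCL3, differed by the largest factor among the 16 size shares. Sense reads of 23 nt made up 1.75% and 1.35% in nrpd1a (293 and 79 reads), against 3.86% and 5.09% in ocp11. The means were 1.55% ± 0.279 in nrpd1a and 4.47% ± 0.863 in ocp11 (n = 2 each, ± SD), a ratio of 0.346 and a difference of -2.92 percentage points (exact permutation p = 0.333). Antisense reads of 23 nt made up 1.96% and 1.72% in nrpd1a, against 3.94% and 4.86% in ocp11. Their means were 1.84% ± 0.164 in nrpd1a and 4.40% ± 0.654 in ocp11 (n = 2 each, ± SD), a ratio of 0.418 and a difference of -2.56 percentage points (exact permutation p = 0.333). On both strands the gap between the mutants was wider than the difference between libraries of 1 mutant. Col-0 had 4.72% of sense reads at 23 nt, between the ocp11 libraries, and 8.80% of antisense reads, above all mutant libraries.

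The 22-nt class, the usual product length of DCL2, held a minor share in both mutants. On the antisense strand it was lower in nrpd1a, with the libraries of each mutant close together. Its antisense share was 4.94% and 4.98% in nrpd1a, against 6.43% and 6.45% in ocp11. The means were 4.96% ± 0.0286 in nrpd1a and 6.44% ± 0.00855 in ocp11 (n = 2 each, ± SD), a difference of -1.48 percentage points (exact permutation p = 0.333). The Wilson intervals did not meet, the highest bound in nrpd1a being 5.52% and the lowest in ocp11 6.30%. On the sense strand the 22-nt share was 8.20% and 8.89% in nrpd1a, against 8.08% and 8.01% in ocp11. The interval of nrpd1a library 2 (Wilson, 7.79% to 8.62%) overlapped those of both ocp11 libraries, and the interval of nrpd1a library 3 (8.19% to 9.65%) was apart from that of ocp11 library 11 (7.91% to 8.12%). The difference of the means was 0.50 percentage points. It was 0.15 without nrpd1a library 3 and 0.84 without nrpd1a library 2. In Col-0 the class was larger than in any mutant library, at 12.9% of sense and 9.83% of antisense reads.

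A share falls when another class of the same strand is larger, so the classes were also set against the 21-nt class alone. For each 21-nt sense read there were 0.228 and 0.193 sense reads of 24 nt in nrpd1a, against 0.337 and 0.574 in ocp11. For each 21-nt antisense read there were 0.144 and 0.140 of 24 nt in nrpd1a, against 0.238 and 0.366 in ocp11. The mean ratios in nrpd1a were 0.462 times (sense) and 0.470 times (antisense) those in ocp11, with differences of -0.245 and -0.160 (exact permutation p = 0.333 each), and -0.126 and -0.0957 without ocp11 library 11. The Col-0 library, at 0.543 and 0.608 for sense and antisense reads, was near ocp11 library 11 on the sense strand and above every mutant library on the antisense strand. Reads of 22 nt per 21-nt read were also fewer in nrpd1a: 0.138 and 0.150 against 0.155 and 0.175 in ocp11 on the sense strand, and 0.0718 and 0.0721 against 0.107 and 0.118 in ocp11 on the antisense strand. The sense 22-nt class was thus higher in nrpd1a as a share of its strand and lower as a ratio to 21 nt, by small amounts in each case. Mean read length was 21.3 and 21.2 nt (sense) in nrpd1a against 21.4 and 21.7 nt in ocp11, and 21.2 and 21.2 nt (antisense) against 21.3 and 21.6 nt in ocp11.

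**Figure D3:**
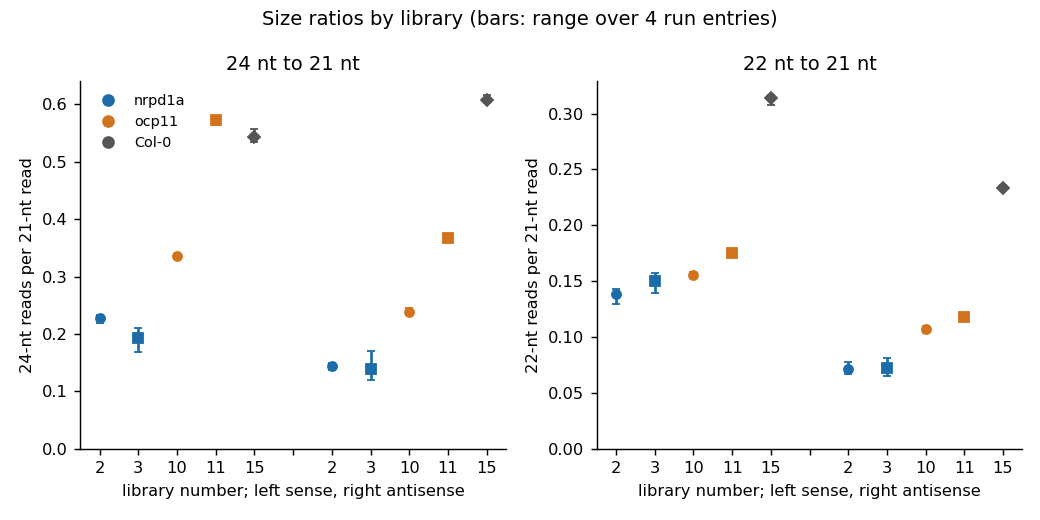
Reads of 24 nt (left) and 22 nt (right) per 21-nt read, with 1 point per library, sense to the left and antisense to the right in each panel. Bars give the range over the 4 run entries of the library, not replicate error. At 24 nt the nrpd1a libraries (0.228 and 0.193 sense) are below the ocp11 libraries (0.337 and 0.574 sense), and the ocp11 libraries are farther from each other than run entries of 1 library are.

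With both strands summed, 21-nt reads made up 64.1% and 64.5% of the stem reads in nrpd1a, against 55.7% and 49.9% in ocp11 and 41.8% in Col-0. Reads of 24 nt made up 11.7% and 10.5% in nrpd1a, against 16.0% and 23.4% in ocp11 and 24.5% in Col-0. Those of 23 nt made up 1.85% and 1.55% in nrpd1a, against 3.90% and 4.98% in ocp11 and 7.40% in Col-0. Counted as shares of both strands, which take in the strand balance, the 21-nt difference was 1.90 percentage points for sense, where the libraries overlapped, and 9.59 for antisense reads. The 24-nt antisense difference was then -2.82 and the 22-nt antisense difference -0.38 percentage points. For the 21-, 23- and 24-nt classes summed over strands the ocp11 mean lay between nrpd1a and the single Col-0 library. Among the 16 size shares by strand the ocp11 mean was the middle value of the 3 backgrounds in 9 and the nrpd1a mean in 6, which is a description of means over 2 libraries, 2 libraries and 1 library.

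Between the means, the remaining lengths differed by at most 1.24 percentage points (sense 19 nt), though not always by a small factor. The 20-nt share overlapped between the mutants on both strands, at 7.89% to 9.39% over the nrpd1a and 7.82% to 10.4% over the ocp11 libraries. The 25-nt class held 0.171% to 0.259% of a strand in nrpd1a and 0.155% to 0.227% in ocp11. Its antisense share did not overlap (0.259% and 0.238% in nrpd1a, 0.185% and 0.227% in ocp11), but only 46 and 16 reads stand behind the nrpd1a values and the Wilson intervals overlapped. Short reads of 19 nt had a sense share of 6.11% and 7.01% in nrpd1a, against 5.69% and 4.96% in ocp11. On the antisense strand the 19-nt order was the opposite, at 3.81% and 4.01% in nrpd1a and 4.62% and 4.16% in ocp11. At 19 nt the Wilson intervals of some nrpd1a and ocp11 libraries overlapped on either strand. With reads of both strands as the denominator, the antisense 19-nt difference turned to 0.0216 percentage points. At 18 nt the antisense share was 2.02% and 2.44% in nrpd1a, against 1.74% and 1.57% in ocp11, with no overlap. The Wilson intervals were apart, and the ratio of the means was 1.35. The sense 18-nt share overlapped, at 2.15% and 2.59% in nrpd1a and 2.22% and 1.75% in ocp11.

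Antisense reads, the strand able to pair with the EIN2 mRNA, were slightly more than an equal part of the stem reads in nrpd1a and slightly less in ocp11. Their share of both strands was 51.4% and 53.5% in nrpd1a, against 46.3% and 46.3% in ocp11. The gap of 5.09 percentage points was wider than the difference between the nrpd1a libraries (2.13) or the ocp11 libraries (0.0209). The means were 52.5% ± 1.51 in nrpd1a and 46.3% ± 0.0148 in ocp11 (n = 2 each, ± SD), a difference of 6.16 percentage points (exact permutation p = 0.333). Put as a ratio, there were 1.06 and 1.15 antisense reads per sense read in nrpd1a, and 0.863 and 0.862 in ocp11. The Col-0 library stood apart from both mutants, at 65.6% antisense or 1.91 antisense reads per sense read.

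The excess of antisense reads in nrpd1a was not shared by all lengths. Of the 8 lengths, the antisense share at a single length was higher in nrpd1a in 6 and lower in 2, without overlap in any (100% of the 8), and the Wilson intervals were apart in 5. At 21 nt it was 55.1% and 57.4% in nrpd1a, against 49.8% and 50.8% in ocp11, a difference of 5.90 percentage points between the means (exact permutation p = 0.333). Reads of 23 nt were 54.2% and 59.5% antisense in nrpd1a, against 46.8% and 45.2% in ocp11, a difference of 10.9 percentage points (exact permutation p = 0.333). The 24-nt reads had antisense shares under 50% in all 4 mutant libraries, at 43.7% and 49.4% in nrpd1a and 41.2% and 39.8% in ocp11. However, the Wilson interval of nrpd1a library 3 (46.7% to 52.1%) took in 50%. The gap between the mutants at 24 nt was 2.51 percentage points, less than the 5.62 between the nrpd1a libraries. Between the means the difference was 6.04 percentage points, or 3.23 without nrpd1a library 3. Reads of 22 nt were the most sense-biased among the 21-, 22- and 24-nt classes in nrpd1a. Here the order of the mutants was the opposite, at 38.9% and 39.2% antisense in nrpd1a and 40.7% and 41.0% in ocp11. The 19-nt reads followed the 22-nt order (39.8% and 39.8% in nrpd1a, 41.2% and 42.0% in ocp11). At both lengths the Wilson intervals overlapped. The 18-nt reads were 49.9% and 52.1% antisense in nrpd1a, against 40.4% and 43.6% in ocp11. For 20 nt the shares were 50.1% and 49.2% in nrpd1a, against 42.6% and 45.6% in ocp11. The Wilson intervals were apart at 18 and 20 nt. For 25 nt the shares were 52.9% and 61.5% in nrpd1a, against 50.8% and 48.7% in ocp11, with overlapping intervals. In Col-0 the antisense share was above every mutant library at each length, at 66.1% for 21 nt, 59.2% for 22 nt and 68.6% for 24 nt.

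**Figure D4:**
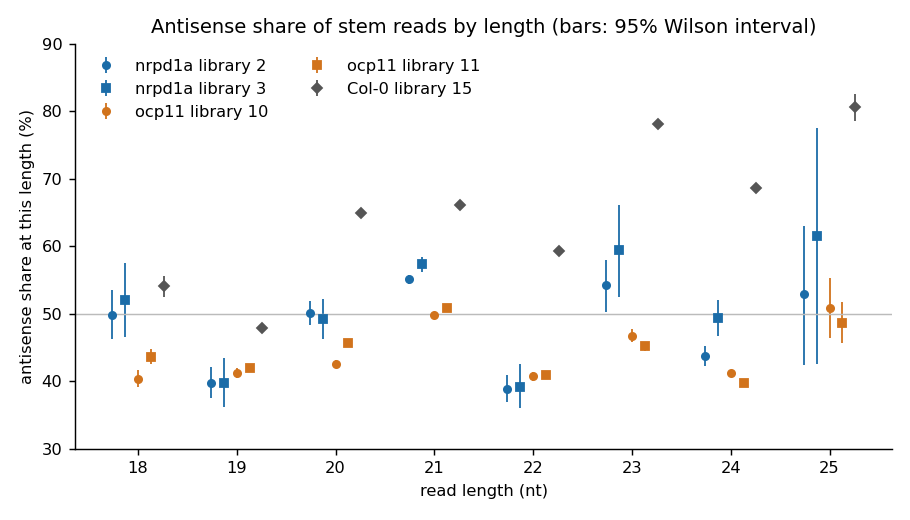
Antisense share of the stem reads of each length, in percent, for read lengths of 18 to 25 nt, with 95% Wilson intervals (counting error only) and a line at 50%. Points are the 2 nrpd1a, 2 ocp11 and 1 Col-0 library. The nrpd1a points are above the ocp11 points except at 19 and 22 nt, and the Col-0 point is the highest at each length.

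Within each library the strands differed in their size profile in a like way in the mutants. The antisense strand held a larger 21-nt share than the sense strand, with sense minus antisense at -9.48 and -9.88 percentage points in nrpd1a and -7.85 and -9.10 in ocp11. The sense strand held the larger 24-nt share, with sense minus antisense at 3.58 and 1.76 percentage points in nrpd1a and 3.28 and 6.14 in ocp11. In the Col-0 library the 21-nt shares of the strands were within 1 percentage point (-0.902) and the 24-nt share was larger on the antisense strand (-3.23).

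The spread within the mutants was unequal. The share of reads that would have to change length to turn 1 library's profile into another's was 2.63% (sense) and 0.981% (antisense) between the nrpd1a libraries, and 9.98% and 6.83% between the ocp11 libraries. Between the mutants it ranged over the 4 pairs from 7.82% to 18.6% for sense and from 9.19% to 15.2% for antisense reads. The sense profile of ocp11 library 10 was closer to those of nrpd1a library 2 (7.82%) and library 3 (9.64%) than to that of ocp11 library 11 (9.98%). For antisense reads each pair across the mutants was farther apart than either pair within a mutant. From Col-0 the nrpd1a libraries were 19.3% and 20.2% away for sense and 28.1% and 28.4% for antisense reads, and the ocp11 libraries 13.8% and 8.91% for sense and 20.002% and 13.3% for antisense reads. In both strands of ocp11 and in the sense strand of nrpd1a the libraries differed beyond counting noise. Chi-square per degree of freedom was 726 for ocp11 sense, 328 for ocp11 antisense and 4.74 for nrpd1a sense reads. The antisense profiles of the nrpd1a libraries did not differ detectably (1.08, chi-square p = 0.371). Such values grow with read number, and antisense reads were fewer in nrpd1a (17740 and 6729) than in ocp11 (133252 and 214926). They therefore do not compare the spread of the 2 mutants.

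The same contrast can be formed in 4 other libraries of these mutants, which carry a hairpin with G:U wobble pairs (hpEIN2[G:U]). There, sense reads were taken from the GU stem and antisense reads from the WT stem. Of the 16 size shares, 9 (56.2%) did not overlap between the mutants with the G:U hairpin. In 4 the direction was the same as with the WT hairpin: nrpd1a was lower than ocp11 in sense 23-nt and antisense 24-nt reads and higher in antisense 18-nt and 25-nt reads. In another 4 it was opposite: 19 nt and 22 nt on each strand. On the sense strand, however, the nearest G:U libraries almost met. At 19 nt nrpd1a library 18 had 3.176% and ocp11 library 6 had 3.177%. At 22 nt nrpd1a library 18 had 7.25% and ocp11 library 4 had 7.38%. The Wilson intervals of these libraries overlapped at both lengths. For 24-nt sense reads the contrast was -9.42 percentage points with the WT hairpin but 1.33 with G:U, where the libraries overlapped (difference of the contrasts -10.8, exact permutation within hairpins p = 0.167). Leaving out library 11 of ocp11 WT gave -6.40, and leaving out library 4 of ocp11 G:U gave -6.59. For 21-nt antisense reads it was 11.5 percentage points with the WT hairpin but -1.28 with G:U. There the libraries overlapped (45.9% and 47.0% in nrpd1a, 54.9% and 40.5% in ocp11). The difference of the contrasts was 12.8 percentage points (exact permutation p = 0.167). Of the ocp11 G:U pair, leaving out library 4 gave 5.59 and leaving out library 6 gave 20.04. The 24-nt antisense contrasts were -7.38 and -4.36 (difference of the contrasts -3.02, exact permutation p = 0.667), a difference that rested on single libraries. It was -0.0932 when library 11 of ocp11 WT was left out, -5.95 when library 10 was, -1.73 when library 4 of ocp11 G:U was, and -1.75 when library 2 of nrpd1a G:U was. For the antisense share of both strands the contrast was 6.16 percentage points with the WT hairpin and 1.58 with G:U, where the libraries overlapped. The difference of the contrasts was 4.58 (exact permutation p = 0.278), and 2.88 without nrpd1a G:U library 2. This test has 36 arrangements and a smallest p of 0.0556, so no measure could pass, and the lowest adjusted p over the 31 measures was 0.215 in the exact permutation test.

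**Figure D5:**
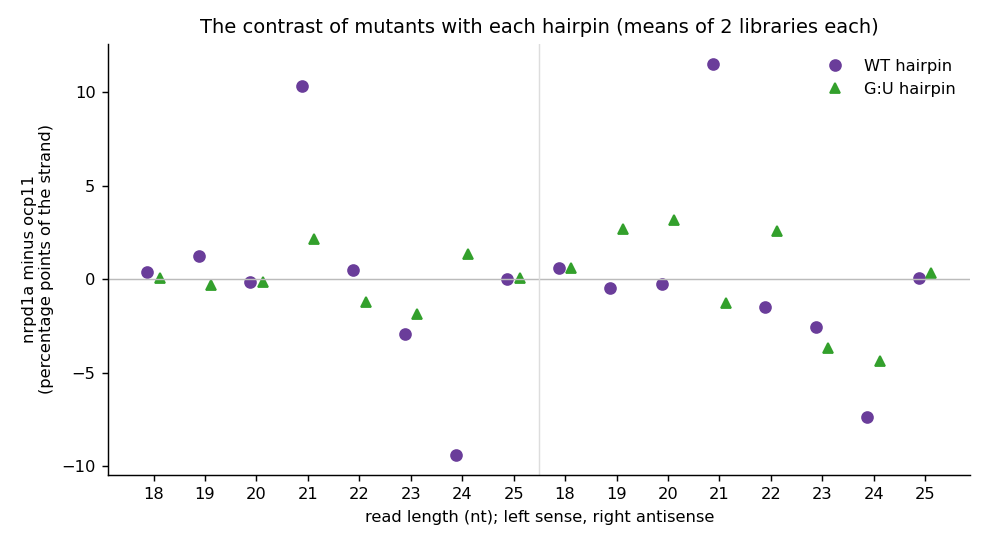
Difference in size share, nrpd1a minus ocp11, in percentage points of the strand's reads, by read length (sense on the left, antisense on the right). Circles are the WT hairpin and triangles the G:U hairpin, each a difference of means over 2 and 2 libraries. The 21-nt differences of 10.3 (sense) and 11.5 (antisense) with the WT hairpin stand beside 2.14 and -1.28 with the G:U hairpin. At 21 nt the G:U libraries of the mutants overlapped on both strands. The sense 23-nt difference is -2.92 beside -1.89. The antisense 23-nt mean difference with the G:U hairpin is also below 0, but there the libraries overlapped (13.4% and 13.2% in nrpd1a, 8.54% and 25.4% in ocp11).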

How the data were processed

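Small RNA was sequenced from total RNA of whole plants. The authors deposited raw read counts by library, strand, length and stem (WT or GU), per the file headers. The submitters' processing notes list cutadapt, Bowtie 1.0 and the TAIR10 build. Of the mismatches allowed, multiple matches, read filters and library totals nothing is stated in the sources used here. Each library has 4 entries under a heading of replicate. In 5 libraries they differed by no more than counting noise except in ocp11 library 11 (chi-square p = 0.0101, adjusted 0.0503, classes of 20 reads or more), and they were summed as runs of 1 library. Table rows on the plus strand were read as sense.

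Shares of each length were taken over 18 to 25 nt within a strand. The 31 measures are 16 size shares, 8 antisense shares by length, the antisense share of both strands, 4 ratios and 2 mean lengths. They were compared with exact two-sided permutation tests of nrpd1a minus ocp11 means, adjusted by Benjamini-Hochberg across all 31. Lengths of 21, 22 and 24 nt are given by library, other lengths by range and by library where the mutants did not overlap. The 23-nt class was singled out after its values were seen. Members and measures were chosen with earlier results of these data known. Python 3.11.15 with numpy 2.4.6 and scipy 1.17.1 was used. The estimated difference was checked on simulated counts with counting noise only, and the permutation p on made-up values. Error rates under a larger spread between libraries were not checked. The first-batch table and the Col-0 G:U libraries were not used here. Alternatives were lengths of 20 to 24 nt, shares of both strands, the mean over run entries, log odds, and leaving out each library.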

Additional observations from a re-analysis of the deposited data

Results flagged for a closer look

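In 8 of the 31 measures the nrpd1a and ocp11 libraries lay apart with both hairpins, but in opposite order. In 7 others they lay apart in the same order with both hairpins. Several of the 31 measures are computed from the same reads, so they are not independent. In each of the 8 the difference between the contrasts had p = 0.0556 and adjusted p = 0.215 (exact permutation test), so none passed. That p is the smallest the test can give. Measures that lie apart in opposite order always reach it, so choosing these 8 fixed it in advance and it adds no support. The 8 concern the 19-nt and 22-nt classes and, in 1 measure, the 24-nt class.

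The antisense 22-nt share, cut by DCL2, was 4.94% and 4.98% in nrpd1a and 6.43% and 6.45% in ocp11 with the WT hairpin, and 7.95% and 8.12% in nrpd1a and 6.33% and 4.62% in ocp11 with the G:U hairpin. The difference of the contrasts was -4.04 percentage points. Antisense 22-nt reads per 21-nt read gave a difference of the contrasts of -0.0989, and the antisense share at 22 nt one of -11.6 percentage points. For the sense 22-nt share it was 1.71 percentage points (1.02 without ocp11 G:U library 6). There the Wilson interval of nrpd1a WT library 2 overlapped those of both ocp11 WT libraries. With the G:U hairpin the intervals of nrpd1a library 18 (7.25%) and ocp11 library 4 (7.38%) overlapped too.

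The 19-nt shares gave 1.55 (sense) and -3.16 (antisense) percentage points, and the antisense share at 19 nt -18.9. For the sense share with the G:U hairpin, nrpd1a library 18 (3.176%) and ocp11 library 6 (3.177%) almost met, and their Wilson intervals overlapped. The antisense share at 24 nt gave 9.70 percentage points: it was 43.7% and 49.4% in nrpd1a against 41.2% and 39.8% in ocp11 with the WT hairpin, and 15.3% and 16.1% in nrpd1a against 20.6% and 18.0% in ocp11 with the G:U hairpin. The cause was not tested.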

How the results depend on the processing

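Of 213 recomputed differences between the mutants, 205 kept their direction and 8 turned. Leaving out a library, or taking log odds, cannot turn a measure whose libraries do not overlap, as in 27 of the 31 measures. The mean over run entries nearly repeats the sum. Many of the 205 were thus fixed in advance, and their number does not measure robustness. As shares of both strands the sense 22-nt difference became -0.26, the antisense 19-nt difference 0.0216 and the antisense 20-nt difference 0.378 percentage points. Over 20 to 24 nt the sense 20-nt difference became 0.0277. With single libraries left out, the sense 20-nt difference ranged from -1.32 to 1.05, the antisense 20-nt from -0.813 to 0.297 and the sense 25-nt from -0.00925 to 0.0640. No alternative could pass the threshold, so only directions were compared. The 12 size shares without overlap were 8 of 10 over 20 to 24 nt, 10 of 16 as shares of both strands and 13 to 15 of 16 with 1 library left out, where fewer libraries make overlap less likely. Differences between the hairpins' contrasts were recomputed only for the antisense share of both strands and the 21-, 22- and 24-nt shares of each strand. No measure at 19 nt, antisense share at a single length or ratio was recomputed in this way. All 83 recomputed differences between the hairpins' contrasts kept their direction but not their size. With single libraries left out they ranged from -5.95 to -0.0932 (antisense 24 nt), 5.59 to 20.04 (antisense 21 nt), -15.1 to -6.40 (sense 24 nt), 3.45 to 12.9 (sense 21 nt), 2.88 to 6.29 (antisense share of both strands) and 1.02 to 2.39 (sense 22 nt). Those without a G:U hairpin library were added after the data were seen. For the 22-nt shares, leaving out a library could not turn the difference of the contrasts, because the mutants lay apart in opposite order. No paired analysis was possible because the nrpd1a and ocp11 libraries share no number. Library totals were not given, which limits the comparison to shares and ratios.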
